A study of Mus musculus with 16 samples.

Results

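The Hedgehog pathway genes examined here were Shh, Ihh, Dhh, Ptch1, Hhip, Smo, Gli1, Gli2 and Gli3, which are 9 of 26180 mouse gene symbols with a curated RefSeq transcript on GRCm38. They were chosen as the ligands, receptors, signal transducer and transcription factors of the pathway, and not by their measured values. Earlier results of these data were known when they were chosen. For each gene, the peaks of 6 lists were collected at the start windows, 2500 bp on either side of every annotated transcription start site, and over the gene body. The lists gave H3K4me3, H3K27me3 and Suz12 peaks from ChIP-seq of R1 mouse embryonic stem cells (ESCs) in a pair of cultures. The medium of LIF-ESCs held 100 units per ml of LIF, and that of Myc-ESCs held 50 nM 4-hydroxytamoxifen (OHT) in place of LIF. In the study's text, OHT acts on a MycER transgene, a point mutant of Myc fused to an estrogen receptor domain. The MycER cells are a clone that carries it. The study's figure legends describe MycER cells grown with LIF or with OHT, so that LIF-ESCs there carry the transgene too. The methods also name a further clone, and the clone behind the ChIP-seq libraries is not stated in the section on those libraries. Both cultures shared feeder-free growth on gelatin with 15% serum and vitamin C.

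Hedgehog ligands are secreted proteins that bind the membrane protein Ptch1, which without ligand holds the membrane protein Smo inactive. Active Smo acts at the primary cilium to stop the processing of Gli proteins into repressors, so that Gli activators reach the nucleus. The pathway patterns the neural tube, limbs and gut of the embryo. H3K4me3 is a histone mark of CpG-rich promoters, H3K27me3 is a mark laid down by Polycomb repressive complex 2 (PRC2), and Suz12 is a core subunit of that complex. Start sites with both histone marks are called bivalent and are a known feature of developmental genes in ESCs.

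At 5 of the 9 genes (Ihh, Dhh, Smo, Gli3 and Hhip) an H3K27me3 peak lay in the start windows in Myc-ESCs and not in LIF-ESCs. At Smo and Gli2 the same held for Suz12. Over all genes, 7.65% had H3K27me3 and 3.81% had Suz12 in Myc-ESCs only. The Myc-ESC H3K27me3 list was the longer, with 16717 peaks against 3120. Limited to as many peaks as the LIF-ESC list, it left 2 of the 5, Ihh and Dhh. Windows of 1000 bp on either side left Ihh and Hhip. None of the 9 had either mark in LIF-ESCs alone. The sequences under 7 short peaks at 5 of the genes are shown, 6 from Myc-ESCs at genes whose state differed between the cultures and 1 from LIF-ESCs as a reference present in both. They are printed 5′ to 3′ on the strand of the gene with every CG pair in capitals. At Ihh, the highest-scoring Myc-ESC H3K27me3 peak (chr1:74952111-74952359, minus strand, GRCm38) lay upstream of the start and inside a LIF-ESC Suz12 peak, and its 249 bases held 1 CG pair. At Ptch1, the higher-scoring of the LIF-ESC H3K27me3 peaks (chr13:63571900-63572194, minus strand) lay in intron 1, held 4 CG pairs in 295 bases, and fell wholly inside a longer Myc-ESC peak. At Smo and Gli3 the Polycomb peaks were few and short, with scores from 51.14 to 86.45. The Suz12 peak of Smo nearer to the start (chr6:29736196-29736379, plus strand) held 22 CG pairs and the Smo H3K27me3 peak farther into intron 1 (chr6:29736879-29737041, plus strand) held 4. The Gli3 Suz12 peak (chr13:15464342-15464590, plus strand) held 21 CG pairs and the Gli3 H3K27me3 peak downstream of it (chr13:15465743-15465914, plus strand) held 1. At Gli2, which had Suz12 in Myc-ESCs only, the peak farthest upstream (chr1:119054239-119054430, minus strand) held 17.
Ihh, Myc-ESC H3K27me3 peak: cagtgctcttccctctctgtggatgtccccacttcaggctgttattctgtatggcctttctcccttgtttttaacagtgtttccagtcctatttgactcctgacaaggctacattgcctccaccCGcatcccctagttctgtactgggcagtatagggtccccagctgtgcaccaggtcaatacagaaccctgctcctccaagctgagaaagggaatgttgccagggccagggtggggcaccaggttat
Ptch1, LIF-ESC H3K27me3 peak: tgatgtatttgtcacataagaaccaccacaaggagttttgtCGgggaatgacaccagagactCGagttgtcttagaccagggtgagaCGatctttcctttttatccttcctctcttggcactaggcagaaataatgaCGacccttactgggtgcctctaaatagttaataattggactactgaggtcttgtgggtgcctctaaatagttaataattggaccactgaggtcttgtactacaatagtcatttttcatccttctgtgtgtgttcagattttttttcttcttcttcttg
Smo, Myc-ESC Suz12 peak: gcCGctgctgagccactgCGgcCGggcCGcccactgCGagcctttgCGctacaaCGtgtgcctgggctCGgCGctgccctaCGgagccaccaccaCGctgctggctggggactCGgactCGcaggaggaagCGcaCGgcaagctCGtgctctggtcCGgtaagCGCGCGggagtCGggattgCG
Smo, Myc-ESC H3K27me3 peak: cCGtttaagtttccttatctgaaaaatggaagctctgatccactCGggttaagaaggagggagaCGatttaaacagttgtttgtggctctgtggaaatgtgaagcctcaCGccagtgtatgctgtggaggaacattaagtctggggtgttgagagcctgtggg
Gli3, Myc-ESC Suz12 peak: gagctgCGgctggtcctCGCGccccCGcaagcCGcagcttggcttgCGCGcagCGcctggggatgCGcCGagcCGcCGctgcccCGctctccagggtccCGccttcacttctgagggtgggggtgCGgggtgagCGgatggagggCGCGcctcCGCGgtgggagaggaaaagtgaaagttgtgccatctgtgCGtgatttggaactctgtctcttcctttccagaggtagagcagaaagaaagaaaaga
Gli3, Myc-ESC H3K27me3 peak: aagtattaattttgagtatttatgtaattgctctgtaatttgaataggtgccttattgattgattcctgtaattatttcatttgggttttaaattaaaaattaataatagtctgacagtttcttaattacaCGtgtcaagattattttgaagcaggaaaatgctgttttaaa
Gli2, Myc-ESC Suz12 peak: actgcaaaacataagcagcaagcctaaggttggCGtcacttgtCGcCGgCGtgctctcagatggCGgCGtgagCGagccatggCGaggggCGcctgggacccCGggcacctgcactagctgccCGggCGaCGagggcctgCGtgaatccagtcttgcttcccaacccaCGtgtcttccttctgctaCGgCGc

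The 6 lists held 32469 and 30345 H3K4me3 peaks in LIF-ESCs and Myc-ESCs, 3120 and 16717 H3K27me3 peaks, and 11305 and 13907 Suz12 peaks. Each peak carried a deposited score, the log-scaled p-value given by the peak caller, and no list went below a score of 50. Scores depend on read depth, so those of different lists are given side by side and are not compared. Many peaks tied at a score of exactly 3100. In LIF-ESCs and Myc-ESCs these were 4006 and 3185 H3K4me3 peaks and 161 and 522 Suz12 peaks. Peaks with that score are thus not told apart by it. Of the 16 libraries in the labels, 4 were inputs and every culture and antibody had 2, but each such pair of libraries had only 1 list. No difference between the cultures could therefore be set against replicate spread, and no test was run. The lists held no read counts, so the depth behind them is unknown, and a longer list can reflect more reads as well as more of the mark. As a check of the cell type, all 10 ESC marker genes listed (Pou5f1, Sox2, Nanog, Klf4, Esrrb, Zfp42, Tdgf1, Dppa3, Utf1 and Sall4) had H3K4me3 at the start site in both cultures. Over all genes H3K4me3 lay at 62.2% and 63.3%, so that this is a weak check. H3K27me3 lay at Dppa3 in both cultures and at Esrrb in Myc-ESCs. Suz12 lay at Esrrb and Dppa3 in both cultures and at Klf4 in Myc-ESCs only.

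All 9 Hedgehog genes had H3K4me3 at a start site in both cultures, beside 62.2% of all genes in LIF-ESCs, while in Myc-ESCs this was 63.3%. H3K27me3 lay at 2 of the 9 in LIF-ESCs (Shh and Ptch1), beside 3.82% of all genes, and at 7 in Myc-ESCs, beside 10.7%. The 5 genes with H3K27me3 in Myc-ESCs only stood beside 7.65% of all genes, and the 0 with it in LIF-ESCs only beside 0.733%. Suz12 lay at 6 of the 9 in LIF-ESCs, beside 12.1% of all genes, and at 8 in Myc-ESCs, beside 14.6%. Smo and Gli2 were the 2 genes with Suz12 in Myc-ESCs only (3.81% of all genes), and 0 had it in LIF-ESCs only (1.28%). Gli1 alone among the 9 had neither Polycomb mark at its start in either culture. The share of members with either mark was thus above that of all genes in both cultures, a description of these genes, which were chosen with earlier results of these data known.

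**Figure D1:**
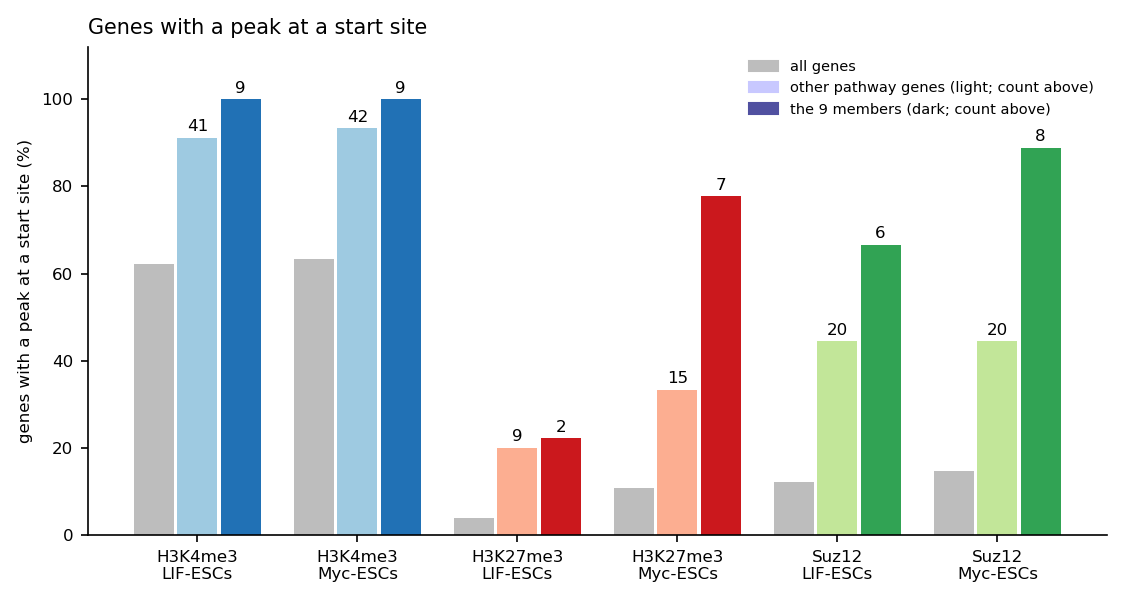
Percentage of genes with a peak at a start site (y axis) in each of the 6 lists (x axis), for all 26180 genes (grey), for 45 other Hedgehog pathway genes (light bars, count above) and for the 9 members (dark bars, count above). From LIF-ESCs to Myc-ESCs, the members with H3K27me3 numbered 2 and 7 and those with Suz12 numbered 6 and 8.

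The H3K27me3 counts depended on how weak a peak was accepted and on the window. With only peaks scoring at least 100, H3K27me3 remained at 4 genes in Myc-ESCs (Shh, Ihh, Dhh and Ptch1) and at 0 in LIF-ESCs, beside 3.73% and 0.458% of all genes. This fixed cut fell unequally on the lists. Over all genes it kept 120 of 1000 marked genes in LIF-ESCs and 977 of 2811 in Myc-ESCs. The 4 and the 0 are therefore not compared. When the Myc-ESC list was limited to as many peaks as the LIF-ESC list, H3K27me3 was left at 2 of the 9 genes in Myc-ESCs only, namely Ihh and Dhh, beside 1.75% of all genes. With windows of 1000 bp on either side of the starts, the genes in that state were Ihh and Hhip, without Dhh. The share of all genes was not taken for that window.

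The bases of the start windows under peaks were then counted. H3K27me3 covered 752 bases of the 9 genes' start windows in LIF-ESCs, in 4 peaks, and 4816 bases in Myc-ESCs, in 23 peaks. Suz12 covered 11478 bases in LIF-ESCs and 17247 in Myc-ESCs, in 21 and 22 peaks. H3K4me3 covered 34431 and 37441 bases in 11 peaks in each culture. The number of Suz12 peaks thus hardly differed between the cultures while the length under them did. Of the 6 genes with Suz12 in both cultures, 4 had more bases covered in Myc-ESCs, beside 81.4% of the 2822 genes so marked in the genome. Both genes with H3K27me3 in both cultures had more in Myc-ESCs, beside 89% of 808 such genes, and all 9 had more H3K4me3, beside 65% of 15958. Over the gene bodies this did not hold for H3K4me3. At Gli1 it covered 9384 bases of the body in LIF-ESCs and 6733 in Myc-ESCs. Dhh, Gli2 and Hhip also had less in Myc-ESCs there, while Shh, Ihh, Ptch1, Smo and Gli3 had more.

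**Figure D2:**
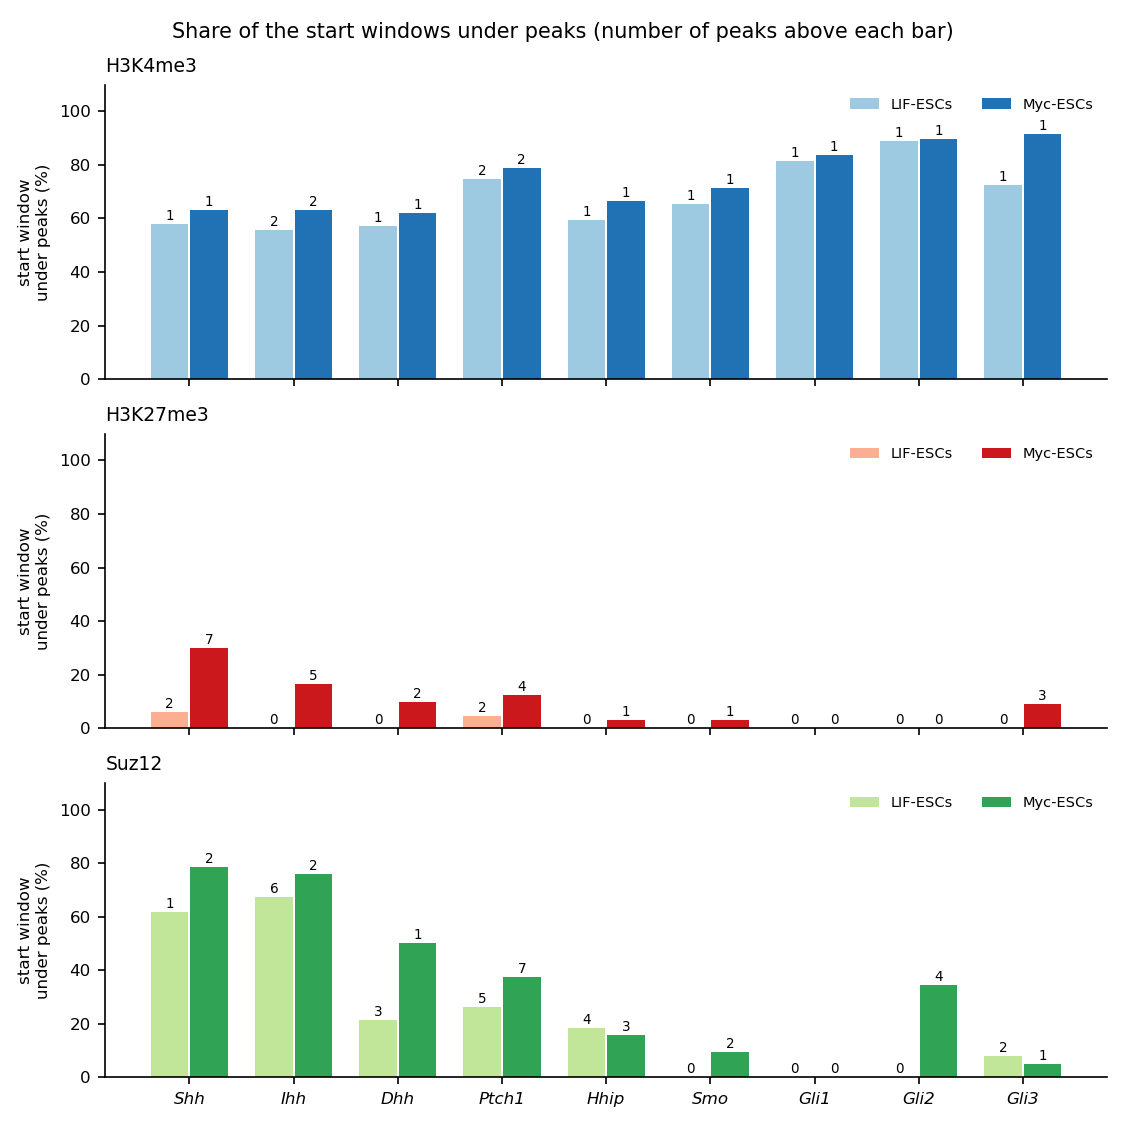
Percentage of each gene's start windows under peaks (y axis) for H3K4me3, H3K27me3 and Suz12 in LIF-ESCs (light) and Myc-ESCs (dark), with the number of peaks above each bar. The Ptch1 value covers windows at both of its start sites. Suz12 covered from 0% at Gli1 to 78.7% at Shh in Myc-ESCs, and the ligand genes and Ptch1 hold the longest H3K27me3 coverage.

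The 3 ligand genes carried the longest single Suz12 peaks of the 9 in each culture. Shh, the ligand of the notochord, floor plate and limb bud, lies on the minus strand at chr5:28456840-28467101 with 3 exons. In LIF-ESCs its Suz12 peaks, 10 in all, ran from 585 bp upstream of the start to 9361 bp downstream. The longest, 3448 bp over exon 1 and part of intron 1, had a score of 3100, a value that 161 peaks of that list shared. In Myc-ESCs the 7 Suz12 peaks were fewer and longer, with lengths of 6302 bp at the start and 3817 bp over intron 2 and exon 3, both at 3100. Peaks thus joined into longer runs, and those at the 3′ end reached farther into the untranslated part of exon 3.

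H3K27me3 at Shh differed between the cultures in extent. LIF-ESCs had 2 short H3K27me3 peaks there, of 152 and 154 bp with scores of 57.8 and 67.1, both upstream of the start. In Myc-ESCs there were 16, from 2341 bp upstream to 10215 bp downstream. The strongest, at 1255 to 766 bp upstream, scored 238.52, and the next, in the untranslated part of exon 3, scored 186.4. Together the Myc-ESC peaks spanned 12557 bp but covered 3518 bp, so that they marked many short stretches and not a continuous block. In the start window, H3K27me3 covered 306 bases in LIF-ESCs against 1490 in Myc-ESCs, and 92.7% of the 2811 genes with Myc-ESC H3K27me3 had a smaller share covered. The divergent gene 9530036O11Rik starts 117 bp away on the opposite strand and shares this window, so that peaks upstream of Shh cannot be assigned to either gene.

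H3K4me3 at Shh was 3459 bp long in LIF-ESCs with a score of 478.29, and 4131 bp long in Myc-ESCs with a score of 186.32. A further H3K4me3 peak lay over intron 2 and exon 3 in both cultures. By length the start window held a little more H3K4me3 in Myc-ESCs, at 3155 against 2903 bases. The H3K4me3 score of Shh stood low among marked genes in both lists, with 19.5% of genes lower in LIF-ESCs and 7.88% in Myc-ESCs.

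Ihh, the ligand of growth plate cartilage and gut, lies on the minus strand at chr1:74945315-74951672 with 3 exons. It had no H3K27me3 peak in LIF-ESCs, the nearest being 51656 bp from its start. In Myc-ESCs it had 5, of which 2 lay upstream and 3 in intron 1. The peak whose sequence is printed above scored 133.17 and another, in intron 1, scored 101.13. Each of the 5 touched Suz12 of Myc-ESCs, and each also touched Suz12 of LIF-ESCs. The H3K27me3 peaks of Ihh thus stood where LIF-ESCs already had Suz12 peaks.

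Suz12 at Ihh was in 7 peaks in LIF-ESCs, from 1156 bp upstream to 3181 bp downstream, the longest of 1934 bp with a score of 1909.72. In Myc-ESCs 3 peaks covered nearly the same region, and 1 of 3954 bp with a score of 3100 ran from upstream of the start through exon 1 into intron 1. Coverage of the start window was 3368 bases in LIF-ESCs and 3805 in Myc-ESCs. The H3K4me3 peak at the start was 2691 bp long in LIF-ESCs (score 118.85) and 2806 bp long in Myc-ESCs (score 188.46). Ihh had the lowest H3K4me3 score of the 9 genes in LIF-ESCs, and 5% of marked genes scored lower.

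Dhh, the ligand of Sertoli and Schwann cells, lies on the minus strand at chr15:98891155-98898540 with 3 exons. In LIF-ESCs it had 3 Suz12 peaks and no H3K27me3 within 107818 bp of the start. The longest of these Suz12 peaks, 2951 bp with a score of 1614.2, lay from intron 1 to exon 3. In Myc-ESCs a Suz12 peak of 5150 bp with a score of 3100 ran from 14 bp upstream of the start to 5135 bp downstream, over all 3 exons. At Dhh the bases of the start window under Suz12 were 1078 in LIF-ESCs against 2515 in Myc-ESCs, where the peak reached back to the start.

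In Myc-ESCs, Dhh had 6 H3K27me3 peaks, of which 2 lay in the start window. Their scores ran from 58.72 to 157.24, the highest in intron 1. All 6 lay wholly within Suz12 and H3K4me3 peaks of Myc-ESCs. The H3K4me3 peak at the start was 6064 bp long in LIF-ESCs and 6088 bp long in Myc-ESCs, with scores of 1453.21 and 915.08. It was the longest H3K4me3 peak among the ligand genes in either culture.

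**Figure D3:**
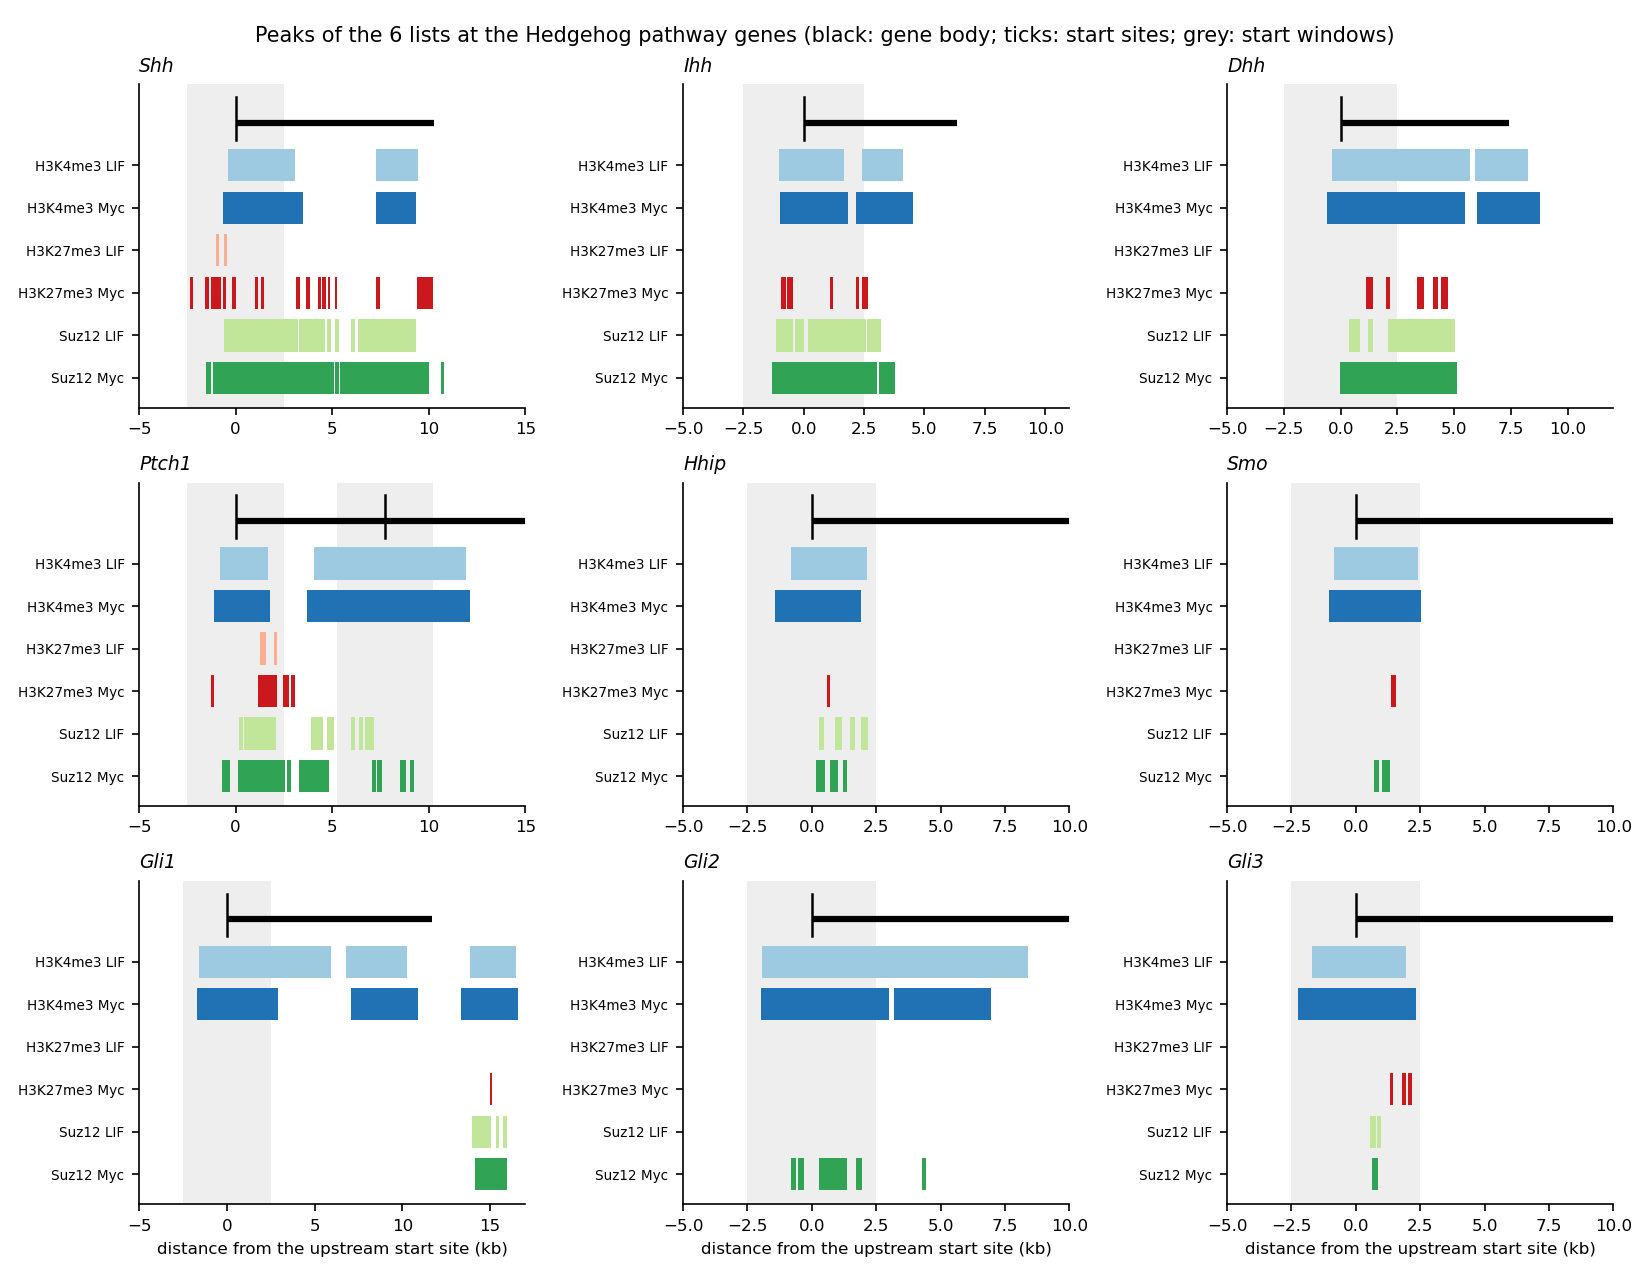
Peaks of the 6 lists at the 9 genes by distance from the upstream start site in kb (x axis), with transcription running to the right. Black lines are gene bodies, ticks are start sites, grey bands are the start windows, light colours are LIF-ESCs and dark colours Myc-ESCs. The panels of Ptch1, Hhip, Smo, Gli2 and Gli3 are cut before the end of the gene. Peaks beyond the cut, as at Ptch1 and Gli2, are not drawn. The ligand genes show Suz12 over several kb in both cultures with scattered short H3K27me3 peaks in Myc-ESCs, and the marks near Gli1 lie beyond its 3′ end.

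Ptch1, the receptor that binds the ligands and holds Smo inactive, lies on the minus strand at chr13:63508328-63573460 with 24 exons and start sites 7725 bp apart. In LIF-ESCs it had 2 H3K27me3 peaks, of 295 and 151 bp with scores of 85.44 and 69.93, both in intron 1 of the longer transcript. In Myc-ESCs it had 5, of which the strongest, 568 bp at 1593 to 2160 bp downstream of the upstream start, scored 303.09. That is the highest H3K27me3 score at any of the 9 genes, and 94.4% of genes with Myc-ESC H3K27me3 scored lower. In both cultures the H3K27me3 peaks lay around the upstream start, and none lay in the window of the second start.

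Suz12 at Ptch1 was in 7 peaks in LIF-ESCs, compared with 9 in Myc-ESCs. The highest-scoring in each culture overlapped the same part of intron 1, with 1621 bp and a score of 1013.29 in LIF-ESCs and 1875 bp and a score of 2298.34 in Myc-ESCs. Short Suz12 peaks also lay near the second start, 3 in LIF-ESCs with scores up to 166.15 and 4 in Myc-ESCs with scores up to 119.71. H3K4me3 differed between the start sites. The peak at the upstream start scored 219.78 (LIF-ESCs) and 186.96 (Myc-ESCs), while that over the second start was 7839 and 8453 bp long and scored 3100 in both. The upstream start thus carried H3K27me3, Suz12 and a low-scoring H3K4me3 peak, and the second start a long H3K4me3 peak with short Suz12 peaks. In Myc-ESCs alone, H3K4me3 peaks lay in intron 2 (3394 bp, score 191.61) and intron 15 (3698 bp, score 141.97).

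Hhip, a membrane-bound antagonist that binds the ligands, lies on the minus strand at chr8:79965851-80058008 with 13 exons. Its Suz12 peaks numbered 4 in LIF-ESCs against 3 in Myc-ESCs, with scores up to 107.38 and 146.59. Its window was covered by Suz12 over 919 bases in LIF-ESCs but 800 in Myc-ESCs, so that Hhip was 1 of 2 genes with less Suz12 length in Myc-ESCs. The H3K27me3 peak of Myc-ESCs, 146 bp in the coding part of exon 1, scored 54.17 and ranked 14181 of 16717. It shared no base with Suz12 but abutted the Myc-ESC Suz12 peak that ran on into intron 1. For H3K27me3, chromosome 8 held 17.1% of all peaks in LIF-ESCs but 9.9% in Myc-ESCs, and 10.7% of its genes had the mark in LIF-ESCs, beside 3.47% of genes elsewhere. For the mark in Myc-ESCs this was 16.1% beside 10.5%, and for the mark in Myc-ESCs only, the state of Hhip, 7.08% beside 7.68%. The part of this in the result at Hhip was not tested. Without Hhip, H3K27me3 in Myc-ESCs only was at 4 of 8 genes.

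Smo, the membrane protein that carries the signal onward, lies on the plus strand at chr6:29735497-29761366 with 12 exons. In LIF-ESCs it had neither Polycomb mark, and its nearest Suz12 peak was 40454 bp from the start. In Myc-ESCs it had 2 Suz12 peaks, of 184 and 290 bp with scores of 57.75 and 67.7, at the end of exon 1 and in intron 1. Its H3K27me3 peak of 163 bp scored 51.14 and ranked 16390 of the 16717 peaks of that list. The Suz12 peaks ranked 11453 and 9387 of 13907, and the H3K27me3 peak shared no base with them. H3K4me3 at Smo was 3267 bp long with a score of 2299.51 in LIF-ESCs, and 3587 bp long with a score of 1894.05 in Myc-ESCs.

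The 3 Gli genes, which encode the zinc finger transcription factors of the pathway, differed from each other. Gli1, an activator that is itself switched on by the pathway, lies on the minus strand at chr10:127329882-127341579 with 13 exons. It had H3K4me3 at its start in both cultures and no Polycomb mark over its window or body. The H3K4me3 peak was 7488 bp long in LIF-ESCs (score 2508.3) and 4565 bp long in Myc-ESCs (score 1448.63), reaching 1571 and 1679 bp upstream. A further H3K4me3 peak over its last exons scored 150.13 in LIF-ESCs and 515.16 in Myc-ESCs. Suz12 peaks of both cultures and a Myc-ESC H3K27me3 peak lay 13951 to 15945 bp from the start, beyond the 3′ end, in the region of a start site of Arhgap9.

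Gli2, a main activator of the pathway, lies on the minus strand at chr1:118834061-119053619 with 14 exons. In LIF-ESCs it had no Suz12 peak within 953587 bp of its start, and in Myc-ESCs it had 5 from 811 bp upstream to 4435 bp downstream. The longest, 1075 bp over exon 1 and intron 1, scored 647.85, and the other 4 scored from 67.22 to 88.63. In Myc-ESCs 34.4% of the Gli2 window lay under Suz12, and 63.6% of the 3820 marked genes had less. No H3K27me3 peak lay at Gli2 in either culture. Its H3K4me3 in LIF-ESCs was a peak of 10329 bp with a score of 3100, the longest at any of the 9 genes. In Myc-ESCs this was a peak of 4975 bp (score 2262.03) and another of 3763 bp (score 531.75) in intron 1. These lay 205 bases apart, and the bases of the start window under H3K4me3 were 4451 in LIF-ESCs against 4477 in Myc-ESCs.

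Gli3, which acts mainly as a repressor in the absence of signal, lies on the plus strand at chr13:15463723-15730026 with 15 exons. It had 2 Suz12 peaks in LIF-ESCs, scoring 68.71 and 70.25, and 1 in Myc-ESCs, scoring 86.45, all in intron 1. Gli3 and Hhip were the 2 genes with less Suz12 length in Myc-ESCs, and for Gli3 this was 249 against 397 bases. The 3 Myc-ESC H3K27me3 peaks lay farther into intron 1, scored 55.72, 56.18 and 68.48, and shared no base with Suz12 of either culture. No LIF-ESC H3K27me3 peak lay within 7294900 bp of the start. The H3K4me3 peak was 3632 bp long in LIF-ESCs and 4580 bp long in Myc-ESCs, with scores of 1178.49 and 2180.47, and Gli3 had the largest difference in H3K4me3 coverage of the 9 genes, at 948 bases.

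Over the gene bodies, H3K27me3 lay at 1 of the 9 genes in LIF-ESCs (Ptch1), beside 3.79% of all genes, and at 7 in Myc-ESCs, beside 10.7%. Suz12 lay over the body of 6 in LIF-ESCs, beside 12% of all genes, and of 8 in Myc-ESCs, beside 14.6%. The gene bodies held 2 H3K27me3 peaks of 446 bases in LIF-ESCs and 30 peaks of 6440 bases in Myc-ESCs. For Suz12 there were 30 peaks of 19762 bases in LIF-ESCs and 25 peaks of 26857 bases in Myc-ESCs. Suz12 peaks over the bodies were thus fewer and longer in Myc-ESCs, as at Shh, Ihh and Dhh.

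The genes were next ordered by what they carried in LIF-ESCs. Ihh, Dhh, Gli3 and Hhip had H3K4me3 and Suz12 in LIF-ESCs without H3K27me3, and all 4 had H3K27me3 in Myc-ESCs. Across the genome this held for 58.5% of the 2180 genes in that state. Smo, Gli1 and Gli2 had H3K4me3 in LIF-ESCs without Suz12, and 2 of these 3 had Suz12 in Myc-ESCs, against 6.99% of 13371 genes. The pattern of Shh and Ptch1, with a peak in all 6 lists, was found at 621 genes (2.37%). That of Ihh, Dhh, Gli3 and Hhip, all but LIF-ESC H3K27me3, was found at 1224 (4.68%). The pattern of Smo (H3K4me3 in both and each Polycomb mark in Myc-ESCs only) was found at 320 genes (1.22%), that of Gli2 at 548 (2.09%) and that of Gli1, H3K4me3 alone, at 11841 (45.2%).

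The H3K27me3 peaks at and near the 9 genes, within 5000 bp of the gene bodies, lay mostly on Suz12. In Myc-ESCs 31 of 38 such peaks touched a Suz12 peak of that culture, and 79.1% of their 8370 bases lay under Suz12. Over the whole genome 48% of Myc-ESC H3K27me3 peaks touched Suz12. In LIF-ESCs it was 3 of 4 peaks, beside 46.2% in the genome. Of the 38 Myc-ESC peaks, 25 touched a Suz12 peak already present in LIF-ESCs. The peaks that shared no base with Suz12 were those of Smo, Gli3 and Hhip, and 1 each at Shh and Ptch1. H3K4me3 overlapped 57.1% of the bases, beside 28.7% in the genome, and at Shh 1028 of 3518 bases lay under H3K4me3 while at Dhh all 1254 did. The genome shares take in all peaks and were not limited to genes or to genes with Suz12, so that they are not matched.

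Placed among all genes marked in the same list, the 9 genes spread widely. Of genes with Myc-ESC Suz12, 89.8% had a smaller share of the window covered than Shh, 89% than Ihh, 77.1% than Dhh and 67% than Ptch1. The values were 37.6% for Hhip, 25.4% for Smo and 15.3% for Gli3. By Suz12 coverage in Myc-ESCs, then, the ligands and Ptch1 stood above the median of marked genes, with Gli2, and the other 3 below. The genes with the most similar bases covered in all 6 lists were Cdh6 for Shh, after the divergent gene that shares its window. They were Pcdh9 and 5730488B01Rik for Ihh, Kbtbd11 and Htra4 for Dhh, and Ppp1r1b and Mir124a-2 for the upstream start of Ptch1. For Smo they were Sh3rf1 and Fgfbp3, for Gli2 St8sia1 and Cacna1a, for Gli3 Ssbp2 and Arhgef17, and for Hhip Ppp1r3b and Rbm47. Likeness was the Euclidean distance over the 6 covered lengths in the start window, which was smallest for Smo and Sh3rf1 at 158 bp. It does not require the same marks. In Myc-ESCs, Ppp1r3b, Rbm47 and Fgfbp3 had no H3K27me3 there, unlike Hhip and Smo. In LIF-ESCs, Mir124a-2 had none, unlike Ptch1, while Htra4 had 132 bases, unlike Dhh.

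Sequence upstream of the start sites was compared in the RefSeq promoter table (GRCm38.p6), which held 7 of the 9 genes, without Shh and Gli1. In the 250 bases before the start, CG pairs numbered 41 at the second start of Ptch1, 34 at Gli3, 28 at Hhip, 24 at Ihh, 22 at Gli2, 15 at Smo and 9 at Dhh, with a median of 6 over 32851 promoters. All 7 were thus above the median, and the genes with the most and the fewest are printed with CG pairs in capitals. They are the promoter of Ptch1 (chr13:63565736-63565985, minus strand) and that of Dhh (chr15:98898541-98898790, minus strand). The order by CG pairs was not that by Suz12, since Dhh had few CG pairs and a Suz12 peak over all exons, while Gli3 had many and, in Myc-ESCs, the least Suz12 of the 8 genes that had any. The E-box CACGTG, which reads the same on both strands and is bound by Myc with Max, was in none of the 7 promoters and in 6.02% of all promoters. The Gli motif GACCACCCA, searched on both strands, was also in none, and in 0.225% of all promoters. Both motifs are rare and only 7 short promoters were searched, Ptch1 at its second start alone, so that finding none says little. Of 36 H3K27me3 and Suz12 peaks of up to 300 bases in the start windows of these 7 genes, outside untranslated exons, 4 held an E-box. They were the printed Gli3 H3K27me3 and Gli2 Suz12 peaks, a Myc-ESC Suz12 peak of Ptch1 and a LIF-ESC Suz12 peak of Hhip. By list, these were 1 of 12 Myc-ESC H3K27me3 peaks, 2 of 12 Myc-ESC Suz12 peaks, 1 of 10 LIF-ESC Suz12 peaks and 0 of 2 LIF-ESC H3K27me3 peaks. Among all peaks of up to 300 bases in these lists, an E-box was in 1.64%, 2.62%, 3.08% and 1.6%. Those peaks were not limited to start windows, so that the shares are not matched.
Ptch1 promoter, second start: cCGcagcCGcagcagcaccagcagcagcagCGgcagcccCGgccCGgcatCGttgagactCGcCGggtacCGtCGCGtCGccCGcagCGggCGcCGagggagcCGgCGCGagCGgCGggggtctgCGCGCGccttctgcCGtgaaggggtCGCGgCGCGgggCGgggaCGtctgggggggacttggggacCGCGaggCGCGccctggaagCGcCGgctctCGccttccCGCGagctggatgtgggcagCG
Dhh promoter: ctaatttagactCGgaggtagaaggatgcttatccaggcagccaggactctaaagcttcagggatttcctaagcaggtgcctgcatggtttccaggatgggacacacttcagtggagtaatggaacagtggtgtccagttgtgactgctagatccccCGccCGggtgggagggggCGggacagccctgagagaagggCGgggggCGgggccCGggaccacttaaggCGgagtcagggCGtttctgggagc

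Of 45 other genes of the pathway, grouped by role, H3K4me3 was at 41 (LIF-ESCs) and 42 (Myc-ESCs), H3K27me3 at 9 and 15, and Suz12 at 20 and 20. Over all genes, H3K4me3 was at 62.2% and 63.3%, H3K27me3 at 3.82% and 10.7%, and Suz12 at 12.1% and 14.6%. H3K27me3 was at 7 of the 45 in Myc-ESCs only and at 1 in LIF-ESCs only, beside 7.65% and 0.733% of all genes. With lists of equal length this turned, to 2 for Myc-ESCs alone against 4 for LIF-ESCs alone. The shares over all genes turned as well, to 1.75% for Myc-ESCs alone against 2.04% for LIF-ESCs alone. Among the 6 genes for release and spread of the ligands, H3K27me3 was at 0 in LIF-ESCs but at 3 in Myc-ESCs. These were Hhat, which adds palmitate to the ligands, and Scube1 and Scube2, secreted proteins of which Scube2 helps release them. All 3 had Suz12 in both cultures, as did Scube3, and their H3K27me3 scores were 83.39, 90.37 and 88.06. Disp1 and Disp2, which encode Dispatched proteins, had H3K4me3 alone.

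Of the 5 co-receptors and binding proteins, Gas1 had H3K27me3 in Myc-ESCs only (score 84.61) and Lrp2 in LIF-ESCs only (score 98.67). At Gas1, a co-receptor anchored at the cell surface, Suz12 covered 185 bases in LIF-ESCs against 2500 in Myc-ESCs. At Boc, another co-receptor, it covered 262 and 1557 bases. Lrp2, an endocytic receptor, went the other way, with Suz12 over 3312 bases in LIF-ESCs and 948 in Myc-ESCs, while Gpc3, a glypican that binds the ligands, had Suz12 in LIF-ESCs only (371 bases). Cdon, a further co-receptor, had none of the marks. The members of this group thus moved in both directions.

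The 21 genes that act between Smo and Gli, such as Sufu, differed from the 9 members in having almost no Polycomb mark. H3K4me3 was at 20 of the 21 in both cultures, H3K27me3 at 1 (Spop, in both cultures) and Suz12 at 1 (Dyrk2, in both cultures). Of the 13 genes known as targets in embryos, 11 in LIF-ESCs had Suz12 against 12 in Myc-ESCs, and 7 and 10 had H3K27me3. Over all genes, Suz12 was at 12.1% and 14.6% and H3K27me3 at 3.82% and 10.7%. Foxf2, Foxl1 and Olig2, which encode developmental transcription factors, had H3K27me3 in Myc-ESCs only, with top scores of 58.72, 210.98 and 106.6, and Suz12 in both cultures. Bmp4, which encodes a secreted signal, had Suz12 in Myc-ESCs only, over 2265 bases with a score of 1668.04, and no H3K27me3. Bmp4 thus had a peak in the same lists as Gli2. Its H3K4me3 coverage was 4962 bases in LIF-ESCs and 3838 in Myc-ESCs, unlike that of Gli2, which hardly differed.

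**Figure D4:**
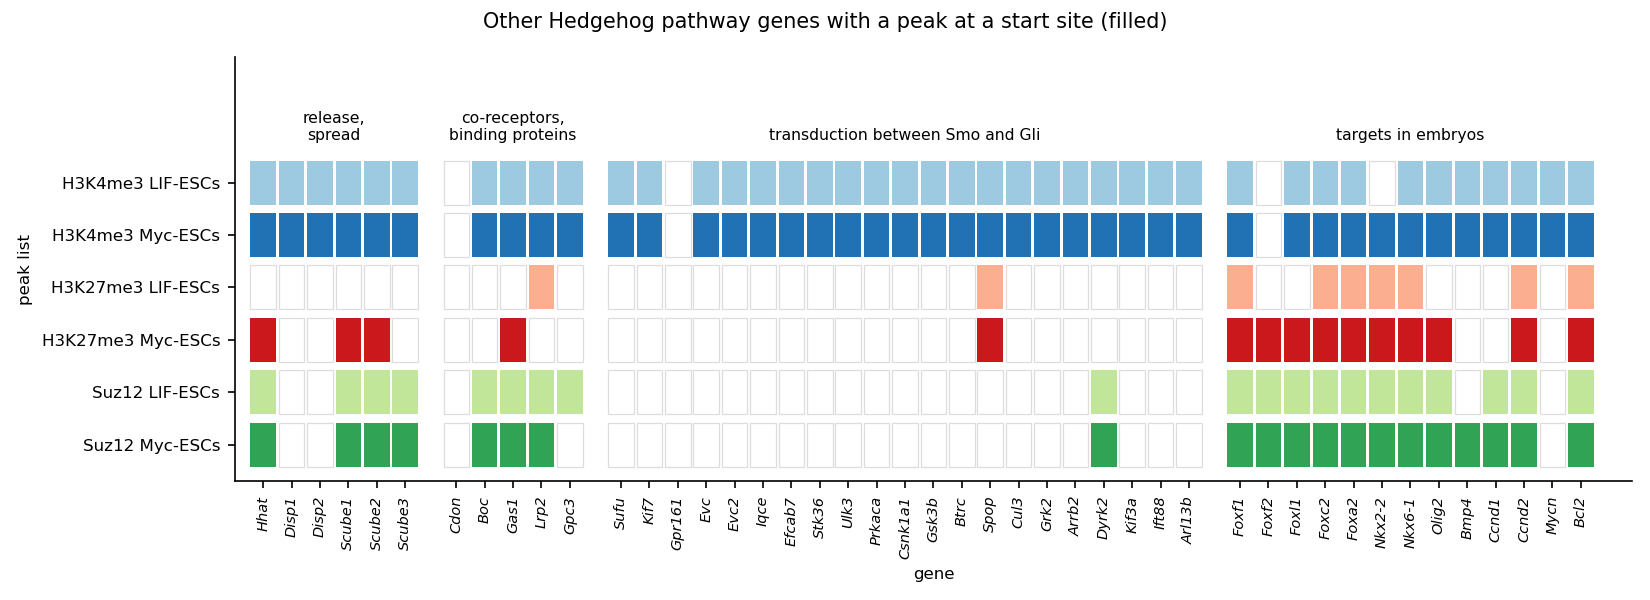
Peaks at the start sites of 45 other Hedgehog pathway genes (x axis, grouped by role) in the 6 lists (y axis), where a filled cell is a gene with at least 1 peak. The 21 genes acting between Smo and Gli carry almost only H3K4me3, while Suz12 lies at 11 (LIF-ESCs) and 12 (Myc-ESCs) of the 13 targets. Over all genes, Suz12 lies at 12.1% and 14.6%.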

How the data were processed

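Peaks from 16 ChIP-seq libraries were used as deposited. Per the labels and the study's methods, the authors aligned reads with Bowtie2 2.2.3 to GRCm38 (mm10) and called peaks with MACS 1.4.2 at default parameters. They deposited 6 lists with a score for each peak, used here only inside each list, for ranks and filters. How the 2 libraries behind a list were combined is not given in the sources used here. The depth of each sample is unknown, and input libraries were not analysed separately. From the lists, a gene counted as marked if at least 1 base of a peak fell in a window of 2500 bp on either side of any start of 45756 curated RefSeq transcripts, over 26180 symbols. Gene bodies ran from the first to the last transcript base, and peak maps added 5000 bp. Covered bases were counted once where windows overlapped. Python 3.11.15 with pandas 2.3.3, numpy 2.4.6, pysam 0.24.0 and matplotlib 3.10.9 was used, and the interval code was tested on simulated data. Positions count from 1.

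The members and lists were chosen with earlier results of these data known. All 9 members are named. Of the other pathway genes those named differ in H3K27me3 or Suz12 between the cultures or belong to a list of 6 or fewer, and for each member with a Polycomb mark the 2 nearest genes are named. Spop, Dyrk2 and Sufu were named in addition, once values had been seen. Alternatives were peaks scoring at least 100, lists of equal length, peak midpoints, windows of 1000 and 5000 bp, the most upstream start only, starts of predicted transcripts, and bodies without the start windows. Omission of Hhip was chosen after seeing the data. A gene of the pathway lists is not reported here. Peaks were the only measurement used, and gene expression was not analysed here.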

Additional observations from a re-analysis of the deposited data

How the results depend on the processing

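Of 176 values under the alternatives, 141 stayed within 1.5 times the main value and 35 did not. The tally compares values and not which genes make them up. With scores of at least 100, a cut that fell unequally on the lists, H3K27me3 was at 0 members in LIF-ESCs and 4 in Myc-ESCs. It covered 0 and 2517 bases, with the same 0 and 4 over gene bodies. These 4, all in Myc-ESCs only, were Shh, Ihh, Dhh and Ptch1. In the main setting that state held at Ihh, Dhh, Smo, Gli3 and Hhip. Suz12 in Myc-ESCs only was then at 1 (Gli2). Among other pathway genes H3K27me3 was at 1 and 7 (0 in LIF-ESCs only), Suz12 in Myc-ESCs only at 4 and H3K4me3 at 2. With lists of equal length, H3K27me3 was at 4 members in Myc-ESCs (2 in Myc-ESCs only), over 2284 bases, and over 3 bodies. Among other pathway genes it was then at 7 in Myc-ESCs, 2 of them in Myc-ESCs only, while 4 had it in LIF-ESCs only, and H3K4me3 in Myc-ESCs only at 2. With windows of 1000 bp, H3K27me3 was at 1 member in LIF-ESCs and 3 in Myc-ESCs, over 282 and 1226 bases. The 2 in Myc-ESCs only were Ihh and Hhip, without Dhh. Suz12 then covered 5643 and 9149 bases and H3K4me3 18252 and 19259, since the windows are shorter. With 5000 bp, Suz12 covered 17951 bases in LIF-ESCs. By peak midpoint, 2 members had H3K4me3 in Myc-ESCs only, and for Suz12 1 (Dhh) stood in LIF-ESCs only, since midpoints of long peaks fall outside the window. Bodies without the start windows held H3K27me3 at 0 and 4 members and Suz12 at 5 in Myc-ESCs. Other causes were not tested. Leaving out Hhip was chosen after seeing the data and left 4 of 8.

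No paired analysis was possible because the deposited lists are not given per library, and for the same reason no library was left out in turn. Coverage records where peaks were called and not read density, so a difference in level under peaks of both cultures goes unrecorded. The depth of the lists is unknown.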
